A study of Rattus norvegicus with 3 samples.

Results

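DP-sig is a label of the study's authors, read here as signalled double-positive thymocytes. Its members were taken from the authors' annotation of 1 thymocyte library, using the projected label, and they number 295 of 8546 annotated cells, or 3.45% (exact Clopper-Pearson interval 3.07 to 3.86). The library was made with the 10x Chromium system from thymocytes of Lewis rats, an inbred strain, aged 8 weeks, released with collagenase D and DNase I. No genotype, treatment or sort is named for these cells, and the number of animals behind the library is not given in the sources used here. A Stereo-seq section of a Lewis rat thymus, also at 8 weeks of age and 10 µm thick, carries the same labels in its deposited cell-type calls. DP-sig was set against the labels DP (5202 cells, the bulk of the double-positive thymocytes), Pre DP-sig (325), Immature CD4 (236) and Immature CD8 (256), all from the same library.

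A double-positive thymocyte carries both coreceptors, CD4 and CD8, together with a newly assembled T-cell receptor. When that receptor meets a self-peptide on an MHC molecule, moderate signalling rescues the cell from death by neglect (positive selection), ends recombination of the receptor genes, and is followed by choice of the CD4 or the CD8 lineage and migration from cortex to medulla. Strong signalling instead leads to deletion or to agonist-selected lineages such as regulatory T cells.

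There was 1 library and 1 section, so cells and bins are not replicates, no test was run, and no comparison had a replicate check. A level is the number of unique molecular identifiers (UMIs, tags that mark single RNA molecules) of a gene, summed over the cells of a label and scaled to 1000000 UMIs of that label (CPM). Every interval is at 95% and covers counting error only. The labels were assigned by the authors from the expression of the same cells, by projection, so levels of genes that define a label are a description of it. DP-sig held 1288426 UMIs, with a median of 4010 UMIs and 1856 genes per cell. Median UMIs per cell were 3484 in Pre DP-sig, 3205.5 in DP, 6398 in Immature CD4 and 5338.5 in Immature CD8. Of the barcodes of the thymocyte library, 38 were also among the 16160 of the stromal library, and 1 of these carried the DP-sig label.

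DP-sig cells lay together in the authors' embedding. By the authors' first clustering 284 of the 295 were in the cluster Early SP, 9 in DP1, 1 in DP2 and 1 in Mature SP. Pre DP-sig was spread more evenly, with 145 cells in DP1, 146 in Early SP, 33 in DP2 and 1 in Mature SP. Of the 3 marker genes of a signalled cell, Tox had a UMI in 98.98% of DP-sig cells, Cd5 in 71.9% and Cd69 in 40.3%. At least 1 of the 3 was found in 99.3% (97.6 to 99.9) and all 3 in 29.5%, against 42.3% (41.0 to 43.7) and 0.365% of DP cells. The other labels were closer to DP-sig. At least 1 was found in 94.8% of Pre DP-sig, 99.6% of Immature CD4 and 99.2% of Immature CD8 cells. All 3 were found in 9.54%, 28.4% and 10.9% in the same order. After each cell was thinned to 1000 UMIs, which left out 38 DP cells and no cell of the other 4 labels, at least 1 was found in 94.2% of DP-sig and 19.8% of DP cells, all 3 in 3.39% and 0%, and Cd69 in 16.3% of DP-sig cells. Unthinned, Cd5 had a UMI in 14.7% of the B and myeloid cells of the library, whose median depth was 11506.5 UMIs. Markers of other cell types were at or near 0. B and myeloid genes summed to 76.8 CPM in DP-sig and from 70.8 to 94.1 CPM over the compared labels, with 8 of 12 genes at 0 in DP-sig, Cd79a, Ms4a1, Lyz2 and Csf1r among them, and 60.5 CPM of the sum from Cst3. Epithelial genes summed to 12.4 CPM with 4 of 7 at 0, mesenchymal and endothelial genes to 21.0 CPM with 7 of 8 at 0 and the remainder from Pecam1, innate-like and killer genes to 10.1 CPM with 6 of 8 at 0, and red cell genes to 0.776 CPM with 4 of 5 at 0.

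**Figure D1:**
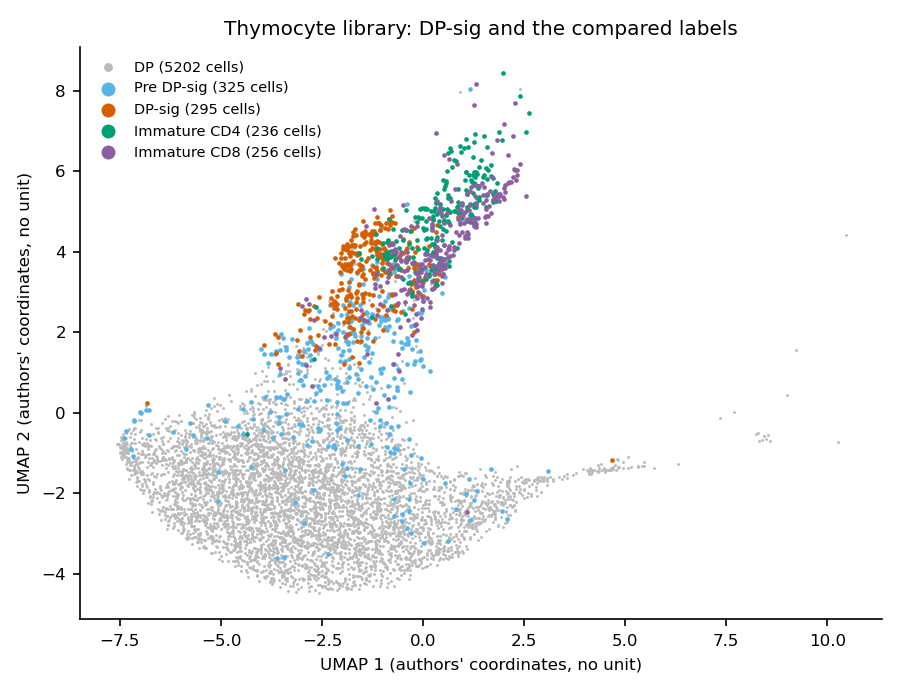
Position of the cells of 5 labels in the authors' embedding (UMAP 1 and UMAP 2, no unit), each point 1 cell. The 295 DP-sig cells sit between the body of DP cells and the Immature CD4 and CD8 cells, beside and above most of the 325 Pre DP-sig cells.

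The response to T-cell receptor signalling was higher in DP-sig than in Pre DP-sig, Immature CD8 and DP, and differed less from Immature CD4. A list of 25 response genes summed to 718 CPM in DP, 3829 in Pre DP-sig, 6988 in DP-sig, 5122 in Immature CD4 and 3905 in Immature CD8. The list includes the marker genes Cd69, Cd5 and Tox, whose levels describe the label and are no separate support for it. The marker gene Tox alone gave 215, 2229, 3352, 1974 and 1981 CPM of these sums in the same order. Both immature labels pool 2 of the authors' subsets that differ, with 6063 CPM in Immature CD4-1, 4238 in Immature CD4-2, 4921 in Immature CD8-1 and 2058 in Immature CD8-2. Of these subset sums Tox gave 2574, 1411, 2695 and 684 CPM, so most of the difference within each pair was Tox. Genes with a mean of at least 25 CPM over the 2 labels of a comparison were compared, and a gene was counted as higher or lower when its ratio was at least 2-fold. Against Pre DP-sig, 8 of the 14 listed genes compared were higher and 0 lower, where 1.84% of all 5539 genes compared were higher. Against Immature CD8, 10 of 15 were higher and 0 lower, beside 5.04% of 5514 genes. Against Immature CD4, 0 of 16 passed 2-fold in either direction, beside 3.94% of 5534 genes higher and 2.13% lower. Against DP, 12 of 13 were higher and 0 lower, beside 6.94% of 5606 genes. The higher genes include the marker Cd69 against Pre DP-sig, Cd69 and Cd5 against Immature CD8, and Cd69, Cd5 and Tox against DP. By subset, 0 of 15 were higher and 1 lower than in Immature CD4-1, 1 of 16 higher and 0 lower than in Immature CD4-2, 9 of 13 higher and 0 lower than in Immature CD8-1, and 10 of 17 higher and 1 lower than in Immature CD8-2. Over all genes 3.55% and 1.83% (Immature CD4-1), 5.93% and 3.39% (Immature CD4-2), 4.18% and 1.61% (Immature CD8-1) and 13.7% and 4.94% (Immature CD8-2) were higher and lower. The median log2 ratio of the genes compared was 1.13 against Pre DP-sig, 0.43 against Immature CD4, 1.22 against Immature CD8 and 3.81 against DP, where the median over all genes compared was 0.02, 0.11, 0.13 and 0.03. All 4 comparisons share the DP-sig cells.

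Cd69, which encodes an early activation protein that keeps signalled cells in the tissue, was at 5.55 CPM in DP, 72.5 in Pre DP-sig, 193 in DP-sig, 148 in Immature CD4 and 80.0 in Immature CD8. The DP-sig level (interval 170.0 to 219) was 2.67 times (interval 2.08 to 3.44) that of Pre DP-sig and 1.30 times (interval 1.09 to 1.56) that of Immature CD4. The highest Cd69 level of any label of at least 50 cells was outside these 5, at 346 CPM in AgoSel1, a label that the files do not spell out. Cd5, which encodes a surface protein that dampens receptor signalling, was at 102 CPM in DP, 273 in Pre DP-sig, 363 in DP-sig, 225 in Immature CD4 and 96.4 in Immature CD8, and the DP-sig value (interval 331 to 398) stood above the other 4. Tox, which encodes a nuclear factor needed for the CD4 lineage, was at 215 CPM in DP, 2229 in Pre DP-sig, 3352 in DP-sig, 1974 in Immature CD4 and 1981 in Immature CD8. Tox was thus already high in Pre DP-sig, and DP-sig had 1.504 times (interval 1.43 to 1.58) that level. Pre DP-sig cells of the cluster Early SP, where most DP-sig cells lay, had 2657 CPM of Tox and 101 of Cd69, and those of DP1 had 1527 and 41.7. Both of these parts of Pre DP-sig were thus below DP-sig for Tox and Cd69. The 33 Pre DP-sig cells in DP2 and 1 in Mature SP were not looked at apart.

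The immediate early and feedback regulators Nr4a1 and Nab2 set DP-sig further apart from Pre DP-sig. Nr4a1, encoding the orphan nuclear receptor Nur77 whose level tracks receptor signal strength, was at 24.1 CPM in DP, 94.98 in Pre DP-sig, 338 in DP-sig, 229.9 in Immature CD4 and 108 in Immature CD8, and DP-sig had 3.55 times (interval 2.89 to 4.41) the level of Pre DP-sig. AgoSel1 again had more, at 1117 CPM, and AgoSel2 had 331. Nab2, encoding a corepressor of EGR factors that those factors induce, was at 5.60 CPM in DP, 77.5 in Pre DP-sig, 239 in DP-sig, 166 in Immature CD4 and 71.5 in Immature CD8, and DP-sig had 3.09 times (interval 2.44 to 3.93) the level of Pre DP-sig. Itm2a, a membrane protein gene induced during positive selection, was at 12.6 CPM in DP, 82.5 in Pre DP-sig, 474 in DP-sig, 849.5 in Immature CD4 and 655 in Immature CD8, and DP-sig had 5.75 times (interval 4.64 to 7.18) the level of Pre DP-sig. Among these 5 labels Nr4a1 and Nab2 were highest in DP-sig, whereas Itm2a was highest in Immature CD4. Id3, an inhibitor of E proteins, was at 166 CPM in Pre DP-sig, 366 in DP-sig, 262 in Immature CD4 and 125 in Immature CD8, and Cd28, the costimulatory receptor, at 382, 875, 587 and 321 CPM in the same order. Nr4a3, a relative of Nr4a1, stood at 26.7 CPM in Pre DP-sig, 79.2 in DP-sig and 90.3 in Immature CD4, and Egr1, an immediate early zinc finger factor, at 47.5, 90.0 and 94.7. The intervals of the ratios to Immature CD4 included 1 for both. Relb and Nfatc1, of the NF-kB and NFAT families, were at 34.2 and 50.4 CPM in DP-sig, 4.17 and 23.3 in Pre DP-sig. Other listed genes were low in DP-sig, with Egr2 at 10.9 CPM, Egr3 at 11.6, Myc at 7.76, Id2 at 1.55 and Tnfrsf9 at 6.21, and Irf4 had 0 UMIs.

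Genes known to respond quickly to tissue handling as well as to receptor signals were partly higher as well. Of 13 such genes 9 were compared with Pre DP-sig, and 2 of them were higher in DP-sig and 0 lower (1.84% and 2.31% of all genes), Fos at 140.5 against 55.8 CPM and Junb at 799 against 349, with a median log2 ratio of 0.50. Against DP, 4 of 9 were higher and 0 lower (6.94% and 7.31% of all genes), Fos, Junb, Ier2 and Hspa8. Against Immature CD4 and Immature CD8, 0 of 9 passed 2-fold, beside 3.94% and 2.13% of all genes, and 5.04% and 1.96%. Hspa1a had 0 UMIs in DP-sig, Hspa1b 2.33 CPM and Dusp1 59.0 CPM against 53.3 in Pre DP-sig. Their part in the signal response was not tested.

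**Figure D2:**
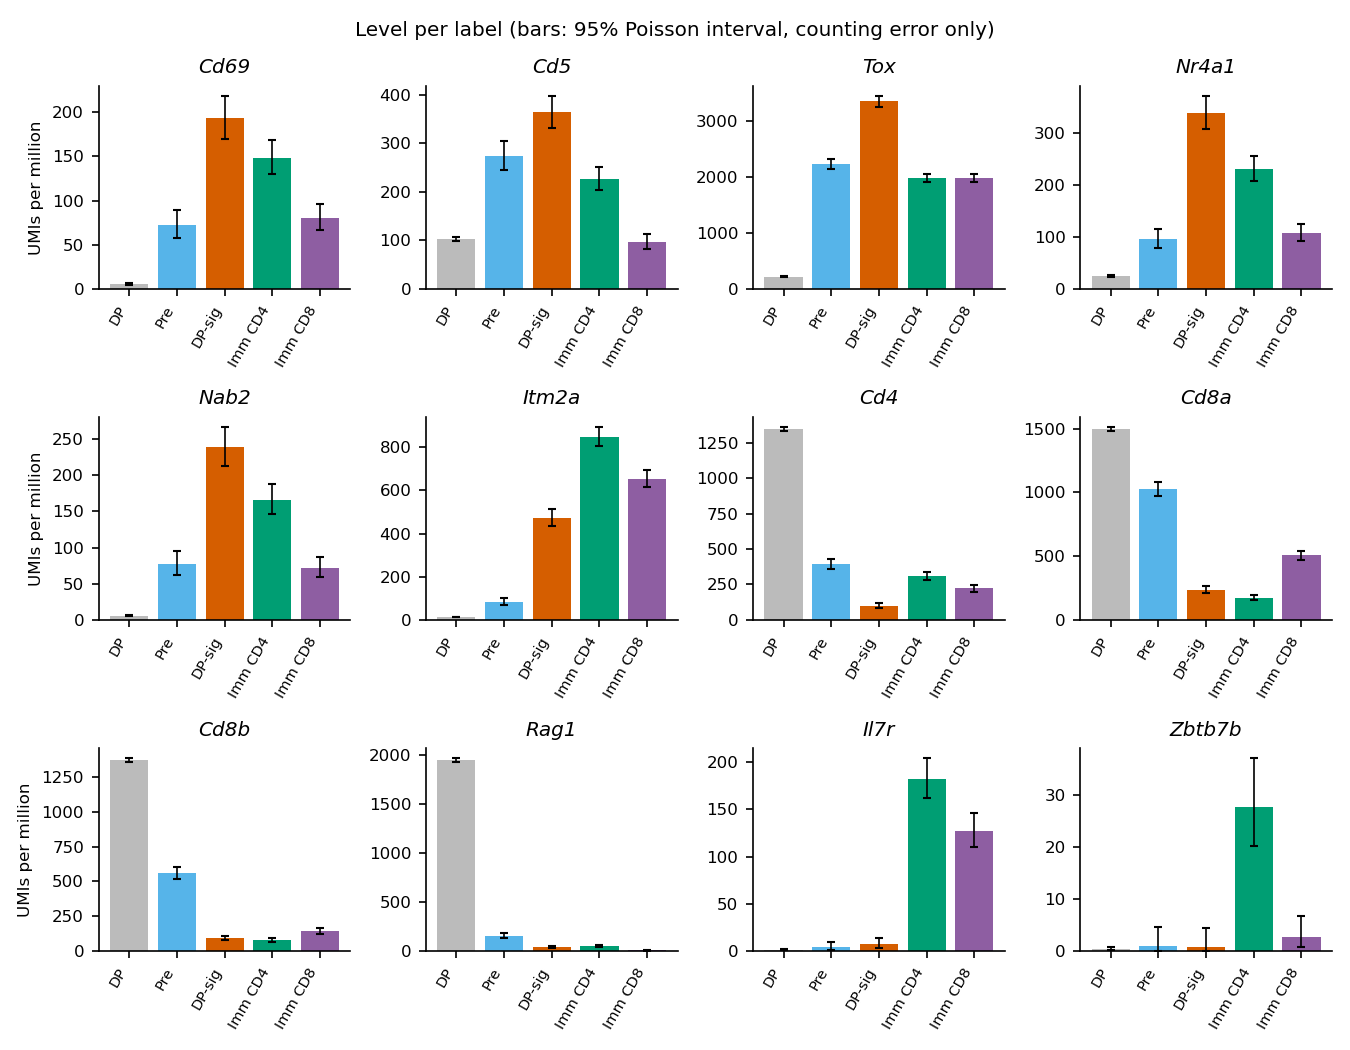
Levels of 12 genes in CPM (vertical axis, from 0) in DP, Pre DP-sig (Pre), DP-sig, Immature CD4 and Immature CD8 (Imm CD4, Imm CD8), with 95% Poisson intervals for counting error as bars. Among these labels Cd69, Cd5, Tox, Nr4a1 and Nab2 were highest in DP-sig, Cd4 was lowest there at 98.6 CPM, Il7r was low in all but the immature labels, and Zbtb7b in all but Immature CD4.

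The sequences upstream of 3 of these response genes are shown because Nr4a1, Nab2 and Itm2a were all at least 3-fold higher in DP-sig than in Pre DP-sig and their promoters hold letters that signal-induced factors are known to bind. They are the 250 bases before the annotated start, from RefSeq on the GRCr8 assembly, matched by symbol, while the counts were made on mRatBN7.2. Of the 25 listed genes 18 had an entry. Capitals mark matches on either strand to TGCGTCA, an AP-1-like or CRE-like sequence, or to GCGTGGG, the core bound by EGR factors, which reads CCCACGC where it lies on the opposite strand.
Nr4a1 promoter: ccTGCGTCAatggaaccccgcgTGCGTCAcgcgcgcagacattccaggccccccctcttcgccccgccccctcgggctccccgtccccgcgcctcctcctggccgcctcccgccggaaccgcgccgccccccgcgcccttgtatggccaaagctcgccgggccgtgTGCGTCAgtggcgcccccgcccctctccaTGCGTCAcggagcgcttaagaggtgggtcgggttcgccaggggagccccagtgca
Nab2 promoter: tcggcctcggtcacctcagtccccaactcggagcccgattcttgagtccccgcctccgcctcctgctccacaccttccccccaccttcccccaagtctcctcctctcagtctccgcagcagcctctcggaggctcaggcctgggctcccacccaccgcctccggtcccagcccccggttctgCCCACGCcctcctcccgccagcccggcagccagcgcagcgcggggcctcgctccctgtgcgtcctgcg
Itm2a promoter: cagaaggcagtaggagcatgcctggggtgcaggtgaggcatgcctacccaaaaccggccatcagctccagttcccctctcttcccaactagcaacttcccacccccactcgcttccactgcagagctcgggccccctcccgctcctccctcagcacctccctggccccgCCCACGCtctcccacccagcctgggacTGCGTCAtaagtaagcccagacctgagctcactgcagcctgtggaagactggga

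The Nr4a1 sequence (chr7:134259888-134260137, plus strand) held 4 matches to TGCGTCA, and it was the only one of 27457 promoters in the table with at least 4. That motif was added to the search after the Nr4a1 sequence had been seen. The Nab2 sequence (chr7:65389256-65389505, minus strand) held 1 match to GCGTGGG. The Itm2a sequence (chrX:76565145-76565394, minus strand) held 1 match to each. Among the 18 listed promoters TGCGTCA was found in 2 and GCGTGGG in 2, and over all promoters the shares were 1.84% and 3.88%. The full cyclic AMP response element TGACGTCA was in 1 of the 18 and 1.70% of all, the AP-1 site TGANTCA in 1 and 6.36%, and the CArG box of serum response factor in 2 and 1.5%. A match describes letters in this window and not a bound site.

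Both coreceptors were low in DP-sig at the RNA level, although its name places it at the double-positive stage. Cd4 was at 1350.2 CPM in DP, 393 in Pre DP-sig, 98.6 in DP-sig, 308 in Immature CD4 and 223 in Immature CD8, so the DP-sig value (interval 82.2 to 117) was the lowest of the 5. Pre DP-sig had 3.99 times (interval 3.27 to 4.89) the Cd4 of DP-sig, Immature CD4 3.12 times (interval 2.56 to 3.82) and Immature CD8 2.26 times (interval 1.84 to 2.80). Cd8a was at 1497 CPM in DP, 1025 in Pre DP-sig, 234 in DP-sig, 172 in Immature CD4 and 505 in Immature CD8, and Pre DP-sig had 4.39 times (interval 3.86 to 4.99) the DP-sig level. Cd8b was at 1372 CPM in DP, 562 in Pre DP-sig and 90.0 in DP-sig, and at 75.2 in Immature CD4 and 142 in Immature CD8. By subset Cd4 was at 242 CPM in Immature CD4-1, 369 in Immature CD4-2 and 307 in Immature CD8-1, but at 70.2 in Immature CD8-2, below DP-sig. Cd4 was therefore lower in DP-sig than in Pre DP-sig and 3 of the 4 immature subsets, while both Cd8 genes were lower than in Pre DP-sig and Immature CD8.

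Single cells showed the same. A UMI of Cd4 together with one of Cd8a or Cd8b was found in 44 of 295 DP-sig cells, or 14.9% (11.1 to 19.5), in 59.7% of Pre DP-sig cells (54.1 to 65.1) and in 96.0% of DP cells (95.4 to 96.5). Another 17 DP-sig cells had Cd4 only, 92 had Cd8 only and 142, or 48.1% (42.3 to 54.0), had neither. In Immature CD4, 19.9% of cells had neither and in Immature CD8 6.64%. With each cell thinned to 1000 UMIs, both were found in 3.05% of DP-sig, 22.8% of Pre DP-sig and 67.8% of DP cells, and neither in 73.6%, 22.2% and 2.29%. In thinned Immature CD4 cells neither was found in 67.8% (61.4 to 73.7), an interval that overlaps that of DP-sig (68.1 to 78.5). The thinned share with neither was 48.0% in Immature CD8. The gap to Immature CD4 seen without thinning was thus small at equal depth. DP cells had the lowest median depth of these labels and the highest share of cells with both. Among cells that should lack the gene, Cd4 was seen in 3.297% of thinned Mature CD8-1 cells and in 7.46% of thinned DP-sig cells, and Cd8b in 2.48% of thinned Mature CD4-1 cells, 6.17% of thinned B and myeloid cells and 7.46% of thinned DP-sig cells, so the Cd8b share in DP-sig was close to that of one such class. The source of these UMIs was not tested. Unthinned, Cd4 was seen in 20.7% of DP-sig and 18.7% of Mature CD8-1 cells, with median depths of 4010 and 10290 UMIs. Surface protein was not measured.

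The transcripts of ThPOK and Runx3 were lower in DP-sig than in the immature cells of the lineage each one serves. Zbtb7b, which encodes ThPOK, the factor that commits cells to the CD4 lineage, had 1 UMI in DP-sig, a level of 0.776 CPM (interval 0.0197 to 4.32), against 27.8 CPM in Immature CD4 and 2.62 in Immature CD8. Runx3, the CD8 lineage factor, was at 66.7 CPM in DP-sig, close to 62.5 in Pre DP-sig, and Immature CD8 had 2.54 times (interval 1.99 to 3.29) as much. Gata3, which acts upstream of ThPOK, was at 126 CPM in DP, 229 in Pre DP-sig, 465 in DP-sig, 286 in Immature CD4 and 128 in Immature CD8, and DP-sig had 2.03 times (interval 1.76 to 2.35) the level of Pre DP-sig and 3.64 times (interval 3.09 to 4.30) that of Immature CD8. Myb, another factor of early CD4 specification and of immature thymocytes, was at 1458 CPM in DP-sig and 962 in Pre DP-sig, and only 174 in Immature CD4 and 104 in Immature CD8. Tcf7, encoding TCF-1, and Ikzf3, encoding Aiolos, were also above both immature labels, at 1669 and 709 CPM in DP-sig and 802 and 239 in Immature CD4. Unlike Myb, Tcf7 was not above Pre DP-sig (2092 CPM). Bach2, encoding a repressor of effector genes, was lower in DP-sig than in Immature CD4, at 499.9 CPM in Pre DP-sig, 789 in DP-sig and 1594 in Immature CD4. Of the 20 coreceptor and lineage genes listed, 16 were compared with Pre DP-sig and 1 was higher and 3 lower (1.84% and 2.31% of all genes). Against Immature CD4 3 and 2 of 16 were (3.94% and 2.13%), against Immature CD8 4 and 3 of 16 (5.04% and 1.96%), and against DP 3 and 3 of 17 (6.94% and 7.31%). Eomes had 0 UMIs in DP-sig and Tbx21 had 2.

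The genes of receptor assembly were low in DP-sig. Rag1, which encodes a subunit of the recombinase, was at 1952 CPM in DP, 154 in Pre DP-sig, 34.9 in DP-sig, 51.8 in Immature CD4 and 5.90 in Immature CD8. In Immature CD4 45 of the 82 Rag1 UMIs came from 1 cell of 42603 UMIs, without which its level was 24.0 CPM, below that of DP-sig. The DP level was 55.9 times (interval 41.8 to 76.6) and the Pre DP-sig level 4.41 times (interval 3.17 to 6.26) that of DP-sig. Rag2, the partner subunit, was at 162 CPM in DP, 7.498 in Pre DP-sig and 2.33 in DP-sig, where it had 3 UMIs. Dntt, encoding terminal transferase, was at 865, 361 and 97.0 CPM in the same order. Of 12 genes of preselection cells, 3 of the 9 compared were lower in DP-sig than in Pre DP-sig and 0 higher, where 2.31% of all genes were lower. Against DP 7 of 10 were lower and 1, Ets2, was higher, beside 7.31% of all genes lower. Arpp21 was at 1737 CPM in DP, 645 in Pre DP-sig and 657 in DP-sig, and so was lower in DP-sig than in DP but not than in Pre DP-sig.

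Most components of the receptor complex did not pass 2-fold, which also held over all genes compared. Of 21 genes listed, 20 were compared, and 1 was higher and 1 lower against Pre DP-sig (1.84% and 2.31% of all genes), 0 and 0 against Immature CD4 (3.94% and 2.13%), 3 and 0 against Immature CD8 (5.04% and 1.96%), and 3 and 2 against DP (6.94% and 7.31%). Cd3e was at 1078 CPM in Pre DP-sig and 1132 in DP-sig, and Zap70, the kinase recruited to the receptor, at 122 and 132. Cd2, an adhesion and costimulatory receptor, was the exception at 67.8 CPM in DP, 716 in Pre DP-sig, 1432 in DP-sig, 775 in Immature CD4 and 491 in Immature CD8, and a UMI of it was found in 96.9% of DP-sig and 14.6% of DP cells. Grap2, an adaptor that binds SLP-76, was lower, at 224 CPM against 489 in Pre DP-sig, and Themis, a regulator needed for positive selection, was at 739.7 against 1444, a ratio of 0.512 that missed the 2-fold mark.

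Negative regulators of signalling were mixed. Of 21 feedback genes 12 were compared with Pre DP-sig and with each immature label, and 13 with DP. Higher and lower numbered 1 and 1 against Pre DP-sig (1.84% and 2.31% of all genes), 2 and 1 against Immature CD4 (3.94% and 2.13%), 6 and 1 against Immature CD8 (5.04% and 1.96%), and 4 and 2 against DP (6.94% and 7.31%). Tnfaip3, which encodes the NF-kB inhibitor A20, was at 47.3 CPM in DP-sig and 13.3 in Pre DP-sig, a ratio of 3.55 times (interval 2.02 to 6.60). Ptpn6, encoding the phosphatase SHP-1, was at 37.4 CPM in DP, 177 in Pre DP-sig, 346 in DP-sig, 199 in Immature CD4 and 136 in Immature CD8. Sla, encoding the adaptor SLAP that lowers receptor levels, was at 623 CPM in DP-sig and 222 and 198 in the immature labels, and Dusp2, a phosphatase of MAP kinases, at 199, 80.2 and 51.2. Ubash3a, encoding the phosphatase-family protein STS-2, was lower, at 34.2 CPM against 138 and 127. Of the MAP kinase phosphatases and Sprouty genes listed, Dusp5 was at 26.4 CPM in DP-sig, Dusp4 at 3.88, Dusp6 at 0.776 and Spry1 at 3.10, and Spry2 had 0 UMIs.

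Of the 14 survival and death genes, most of those compared did not pass 2-fold, which also held over all genes compared. Of 11 compared with Pre DP-sig 1 was higher and 1 lower (1.84% and 2.31% of all genes). Of 12 compared with each immature label 1 and 1 were (3.94% and 2.13% for Immature CD4, 5.04% and 1.96% for Immature CD8), and of 11 compared with DP 1 and 3 (6.94% and 7.31%). Bcl2, which encodes the survival protein of selected thymocytes, was at 60.8 CPM in DP, 206 in Pre DP-sig, 359 in DP-sig, 570.4 in Immature CD4 and 372 in Immature CD8, and DP-sig had 5.91 times (interval 5.29 to 6.59) the level of DP. Bcl2l1, encoding BCL-XL, which keeps unselected double-positive cells alive, was at 266 CPM in DP, 50.0 in Pre DP-sig and 58.2 in DP-sig. Fas, the death receptor, was at 454, 204 and 61.3 CPM in the same order. Bcl2l11, which encodes BIM, the mediator of negative selection, differed little, at 31.8 CPM in DP-sig (interval 22.8 to 43.2) and 35.0 in Pre DP-sig, and was at 201 in AgoSel1. Pmaip1, encoding the BH3-only protein NOXA, was at 105 CPM, above Pre DP-sig (42.5), Immature CD4 (49.3) and Immature CD8 (25.6), and past 2-fold in each of those comparisons. Against DP, at 83.7 CPM, it was not.

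Several genes of exit and maturation were lower in DP-sig than in both immature labels. Of 16 maturation genes, 7 of 13 compared were lower than in Immature CD4 and 1 higher, and 7 of 13 lower than in Immature CD8 and 1 higher, with median log2 ratios of -1.07 and -1.21, where 2.13% and 1.96% of all genes compared were lower. The 7 were the same in both comparisons, B2m, RT1-A1, Gimap4, Klf2, Il7r and Samhd1 among them, and the higher one was Cd27. By subset the lower genes numbered 3 of 11 against Immature CD4-1, 7 of 13 against Immature CD4-2, 4 of 11 against Immature CD8-1 and 7 of 13 against Immature CD8-2. Il7r, the receptor for the survival cytokine interleukin 7, had 9 UMIs in DP-sig, a level of 6.99 CPM (interval 3.19 to 13.3), beside 183 in Immature CD4 and 127 in Immature CD8. B2m, the light chain of MHC class I, was at 375 CPM in DP, 629.9 in Pre DP-sig, 788 in DP-sig, 1653 in Immature CD4 and 1824 in Immature CD8. Samhd1 had 0 of 1288426 UMIs, which allows up to 2.33 CPM at 3 UMIs, and Immature CD4 had 56.2 CPM, at least 24.1-fold higher against that limit. Klf2, which drives exit genes, was at 25.6 CPM against 96.4 in Immature CD8.

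Ccr7, which leads cells to the medulla, had 3 UMIs in DP-sig, 2.33 CPM (interval 0.480 to 6.80), beside 22.1 in Immature CD4 and 14.4 in Immature CD8. Ccr4, a chemokine receptor that appears early after selection, was at 1.74 CPM in DP, 14.2 in Pre DP-sig, 63.6 in DP-sig, 58.1 in Immature CD4 and 26.9 in Immature CD8, and a UMI of it was found in 20.3% of DP-sig and 5.23% of Pre DP-sig cells. DP-sig thus had Ccr4 at a level near that of Immature CD4 but Ccr7 near the limit of detection. Ccr9, a receptor of cortical thymocytes, was at 577 CPM, between 741 in Pre DP-sig and 396 in Immature CD4. S1pr1, needed to leave the thymus, was at 3.10 CPM. Of 18 migration and adhesion genes, 1 of 7 compared, Ccr4, was higher than in Pre DP-sig and 0 lower (1.84% and 2.31% of all genes). Of 12 compared with Immature CD4, 1, the integrin gene Itga4, was higher and 5 lower (3.94% and 2.13%), Ccr8, Gpr183, Klf2 and Foxo1 among them. By subset 2 of 10 were lower than in Immature CD4-1 and 7 of 13 than in Immature CD4-2. Of 9 compared with Immature CD8 1 was higher and 3 lower (5.04% and 1.96%), and of 9 compared with DP 2 and 2 (6.94% and 7.31%). Of 17 cytokine receptor and signalling genes 13 were compared, with Il6st and Ifngr1 higher and Il21r lower than in Pre DP-sig, where 1.84% and 2.31% of all genes were. Against each immature label 0 were higher and 2 lower, Il7r among them (3.94% and 2.13% of all genes for Immature CD4, 5.04% and 1.96% for Immature CD8).

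Genes linked to agonist selection and regulatory T cells were high in DP-sig in part. Ikzf2, encoding Helios, was at 154 CPM in DP, 529.9 in Pre DP-sig, 1087 in DP-sig, 130.1 in Immature CD4 and 209.9 in Immature CD8, with 2150.2 in AgoSel1 and 2589 in AgoSel2. The DP-sig level was 8.35 times (interval 7.21 to 9.71) that of Immature CD4, and a Helios UMI was found in 75.3% of DP-sig and 22.0% of Immature CD4 cells. Tigit, an inhibitory receptor gene, was at 69.9 CPM against 8.33 in Pre DP-sig and 5.05 in Immature CD4, and had a UMI in 14.2% of DP-sig and 0.442% of DP cells. Cd200 and Lag3, encoding surface inhibitory proteins, were at 694 and 602 CPM in DP, 541 and 195 in DP-sig, and 63.2 and 46.7 in Immature CD4. Pdcd1, encoding PD-1, was at 18.6 CPM in DP-sig and 4.42 in Immature CD4, and had 0 UMIs in Pre DP-sig. A Pdcd1 UMI was found in 10.0% of AgoSel1 and 5.08% of DP-sig cells. The defining regulatory gene Foxp3 had 0 UMIs, Zbtb16, which encodes the innate-like factor PLZF, had 0, and Tnfrsf4 and Tnfrsf18 were at 1.55 and 20.2 CPM. Of 17 listed genes 9 were compared in each comparison. Higher and lower numbered 4 and 0 against Pre DP-sig (1.84% and 2.31% of all genes), 4 and 1 against Immature CD4 (3.94% and 2.13%), 6 and 1 against Immature CD8 (5.04% and 1.96%), and 4 and 2 against DP (6.94% and 7.31%). Lag3 was 1 of those lower than in DP.

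Of the 102 genes higher and 128 lower than in Pre DP-sig, those with the largest ratios on at least 50 UMIs and in at least 15% of cells of the higher label were named. Hivep3, encoding a zinc finger protein of the Schnurri family, led, at 7.30 CPM in DP, 29.2 in Pre DP-sig, 536 in DP-sig, 323 in Immature CD4 and 47.2 in Immature CD8. The ratio to Pre DP-sig was 18.4 times (interval 13.1 to 26.6), and a UMI was found in 61.7% of DP-sig against 8.00% of Pre DP-sig cells. Gpc5, encoding a glypican, was at 7.82 CPM in DP, 43.3 in Pre DP-sig, 264 in DP-sig, 10.7 in Immature CD4 and 12.5 in Immature CD8, and Srgn, encoding the granule proteoglycan serglycin, at 14.0 CPM in DP, 96.6 in Pre DP-sig, 556 in DP-sig, 58.1 in Immature CD4 and 36.7 in Immature CD8. Gpc5 and Srgn were thus low in both immature labels, whereas Hivep3 was still at a high level in Immature CD4. AgoSel1 had all 3, with 547 CPM of Hivep3, 554 of Gpc5 and 672 of Srgn. Of the 245 Gpc5 UMIs in AgoSel1, 168 came from 1 cell, without which its level was 181 CPM, below that of DP-sig. The other 7 named were Tril, Btla (an inhibitory receptor gene), Itm2a, Chn2, Arid5b, Ccr4 and Rgs2 (a regulator of G protein signalling), with ratios from 3.99 to 6.74. For Chn2 11 of the 26 UMIs of Pre DP-sig came from 1 cell, without which Pre DP-sig was at 12.5 CPM in place of 21.7. The 10 genes with the smallest ratios were Spon1, Cd8b, Cdc14b, Gria3, Slc7a11 (a subunit of the cystine transporter), Lrguk, Gucy1b2, Rag1, Cd8a and Cd4, with Pre DP-sig levels from 3.99 to 6.52 times those of DP-sig.

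Against the immature labels 218 genes were higher and 118 lower (Immature CD4), and 278 higher and 108 lower (Immature CD8). By subset they were 196 and 101 for Immature CD4-1, 327 and 187 for Immature CD4-2, 231 and 89 for Immature CD8-1, and 748 and 269 for Immature CD8-2. Among the 10 largest in both were Gpc5, Tril, Hspa4l, Srgn, Cd200, Myb and a gene listed under the symbol Ighv. Myb had 8.39 times (interval 7.39 to 9.56) the level of Immature CD4 and 14.0 times (interval 11.9 to 16.5) that of Immature CD8, and Hspa4l, encoding a heat shock protein of the HSP110 family, 10.0 times (interval 7.29 to 14.1) and 16.6 times (interval 11.1 to 26.0). Prom1, Egln3 and Ikzf2 completed the 10 against Immature CD4, and Chn2, Hivep3 and Angpt1 those against Immature CD8. Among the lowest against Immature CD4 were Mmp9 at 2.33 against 124 CPM, Resp18 at 10.1 against 335, and Cd40lg, which encodes the CD40 ligand of helper cells, at 3.88 against 113. Ctsw, encoding a lymphocyte cathepsin, was low in DP-sig at 3.10 CPM against 96.0 in Immature CD4 and 114 in Immature CD8. The median log2 ratio over all genes was 0.11 and 0.13 in these 2 comparisons. Ribosomal protein genes took 16.2% of UMIs in DP-sig, 22.1% in Immature CD4 and 24.2% in Immature CD8. With ratios divided by the median the counts were 162 higher and 150 lower, and 204 and 143. With mitochondrial, ribosomal protein and haemoglobin genes left out of the totals they were 200 and 195, and 240 and 200. The share of higher genes thus went from 64.9% to 50.6% against Immature CD4 and from 72.0% to 54.5% against Immature CD8.

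Set against DP, DP-sig differed at more genes, with 389 higher and 410 lower. The largest ratios were those of Tril, Hivep3, Nab2, Srgn, Itm2a, Btla, Ccr4, Cd69, Gpc5 and Tox2, which encodes a relative of Tox. Hivep3 had 73.4 times (interval 61.1 to 88.8) the DP level, Nab2 42.7 times (interval 34.1 to 53.7) and Cd69 34.8 times (interval 27.6 to 44.2). The smallest were those of Rag2, Rag1, Acvr1c, Mei1, Syt6, RT1-N2, Pla2g2f, Olfml3, Sox6 and Ptcra, which encodes the pre-receptor alpha chain of earlier thymocytes. Ptcra was at 8.54 CPM in DP-sig, 5.45 without the cell that held 4 of its 11 UMIs, and 207 in DP.

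**Figure D3:**
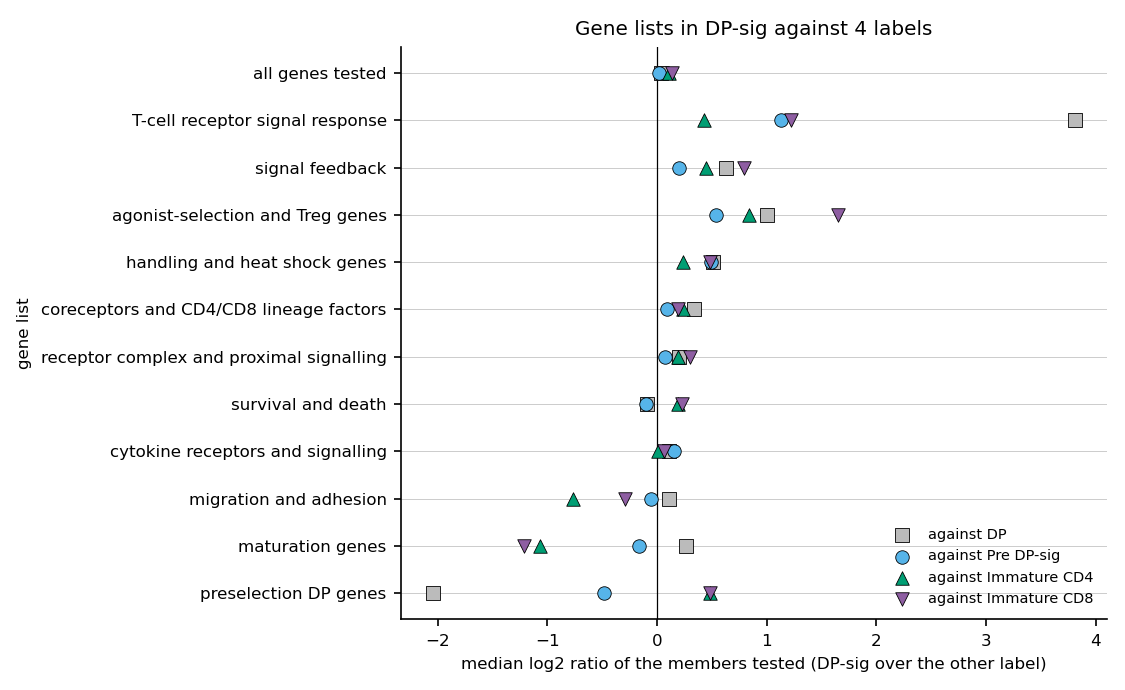
Median log2 ratio of the members compared (horizontal axis, DP-sig over the other label) for 11 gene lists and all genes, with 1 symbol for each of the 4 compared labels. The signal response list lies to the right in every comparison, at 0.43 against Immature CD4 and 3.81 against DP, and the maturation list lies at -1.07 and -1.21 against the immature labels. Against Immature CD4 the signal feedback, preselection and agonist-selection lists lie as far right or farther, at 0.45, 0.49 and 0.84.

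A set of 122 of 5514 genes (2.21%) with at least 25 CPM in DP-sig was at least 1.5-fold higher there than in each of DP, Pre DP-sig, Immature CD4 and Immature CD8. The largest leads over the next label on at least 50 UMIs belonged to Gcsam at 44.2 CPM (17.5-fold), Chrm3 at 48.1 (6.93-fold), Tril at 73.0 (6.74-fold) and Tigit at 69.9 (6.66-fold). These rested on 57 to 94 UMIs each, and Chrm3, encoding a muscarinic acetylcholine receptor, came from 4.41% of DP-sig cells. Gpc5 (6.09-fold), Srgn (5.76-fold), Chn2, Cldn5, Hspa4l and Egln3 followed. Of the listed genes, Tigit, Ikzf2, Cd2, Dusp5, Ptpn6, Gata3, Tnfaip3, Tox and Il2rb belonged to the set. The lead is over these 4 labels only. The next label for Chrm3, Immature CD4 at 6.95 CPM, was at 3.17 without 1 cell. In the other direction, chosen after the data were seen, 24 of 4566 genes (0.526%) were at least 1.5-fold lower in DP-sig than in each of the 4. They included the class I gene RT1-S3, the cytokine receptor genes Il21r and Il4r, and Cd4, although its level in the subset Immature CD8-2 was below that of DP-sig. Map2k6, encoding a kinase of the p38 pathway, was at 33.4 CPM against 94.1 to 139.8 in the other labels.

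**Figure D4:**
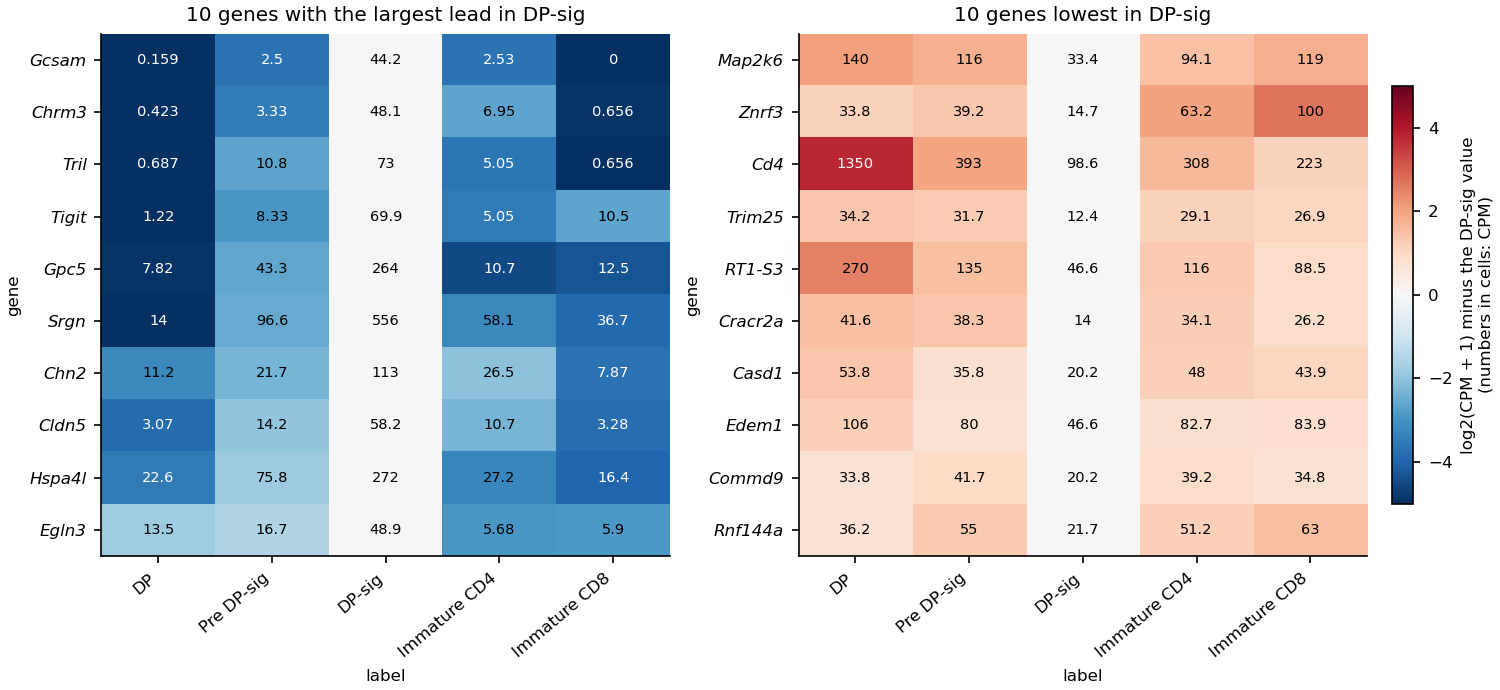
Levels in CPM (numbers) of the 10 genes with the largest lead in DP-sig and of the 10 genes lowest there, by label, coloured by the difference from DP-sig on the log2(CPM + 1) scale. Tigit and Gpc5 have their highest values in the DP-sig column, at 69.9 and 264 CPM among these 5 labels, and Cd4 has its lowest value there.

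Levels were also compared in shape with Cd69 over the 17 labels of at least 50 cells. Of 5249 genes with at least 25 CPM in DP-sig, leaving out ribosomal protein and mitochondrial genes and those known only by an identifier, the most alike by Spearman's rho were Arid5b (0.91), Tulp4 (0.91), Id3 (0.89), Il6st (0.89), Sesn3 (0.87), Tgfb1 (0.87), Man1a1 (0.85), Maml2 (0.85), Hdac5 (0.85) and Cdc14a (0.84). The labels share 1 library and depths that differ between them, and the values are a description. Arid5b, encoding a DNA-binding protein, was at 29.1 CPM in DP, 93.3 in Pre DP-sig, 441 in DP-sig, 458 in Immature CD4 and 193 in Immature CD8. Il6st, encoding the receptor chain gp130, was at 2.54 CPM in DP, 17.5 in Pre DP-sig, 64.4 in DP-sig, 93.5 in Immature CD4 and 34.1 in Immature CD8. Sesn3, encoding a stress protein of the sestrin family, was at 237 CPM in DP-sig and 69.2 in Pre DP-sig.

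To place DP-sig between the lineages, genes that differed at least 2-fold between Immature CD4 and Immature CD8 were taken, and the DP-sig level was put on the log2 scale from 0, the label with less, to 1, the label with more. Of 48 genes higher in Immature CD4, DP-sig lay above both labels for 17, nearer the CD4 value for 10, nearer the CD8 value for 6 and below both for 15, with a median of 0.72. Of 19 genes higher in Immature CD8, it lay above both for 2, nearer the CD8 value for 5, nearer the CD4 value for 4 and below both for 8, with a median of 0.28. Of the genes higher in Immature CD4, signal response genes such as Nr4a1, Nab2, Cd5 and Id3, and also Hivep3 and Gata3, were above both in DP-sig, while helper genes such as Cd40lg and Tnfrsf4, at 1.55 CPM, were below both. Rag1 and Slc7a11 were among the 48, and of their Immature CD4 UMIs 45 of 82 and 50 of 94 came from the 1 cell of 42603 UMIs. With genes of at least 100 CPM the median on the CD4 side was 1.26, which is beyond the Immature CD4 value.

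In the section, cell types were inferred by the authors with robust cell-type decomposition (RCTD) from references built with this library and published mouse data, and a bin of 10 µm can hold parts of several cells. RCTD put DP-sig first in 9353 of the 592087 bins with a call, or 1.58%, while in suspension it was 3.45% of annotated cells of the thymocyte library, a different denominator. Of the DP-sig bins 13.3% were marked confident by the authors, against 58.3% of DP and 19.7% of Pre DP-sig bins. The most frequent companions of a DP-sig label were epithelial, with a cortical epithelial second type in 12.5% of its bins and a medullary one in 18.3%, against 16.4% and 11.8% of DP bins, and 61.3% of DP-sig bins were given 1 type. Neighbouring bins share RNA and tissue, so intervals are too narrow.

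DP-sig first labels were spread over the tissue. They made up 1.41% of labelled bins in the capsular area (1.35 to 1.48), 1.66% in the cortex (1.62 to 1.70), and 1.22% (1.12 to 1.33) and 1.76% (1.58 to 1.96) in the medullary areas named mECA and mEFA, names that the files do not spell out. Pre DP-sig made up 8.83%, 10.0%, 1.82% and 3.54% in the same order and Immature CD4 0.592%, 0.981%, 4.30% and 4.61%. Of all DP-sig bins 8.90% were in the medulla, against 0.642% of DP, 2.66% of Pre DP-sig, 35.6% of Immature CD4 and 27.7% of Immature CD8 bins. Over all labels, mECA and mEFA held 40180 and 19354 of the 592087 labelled bins, and the DP-sig share was near that of all labelled bins. In the share of its bins in the medulla DP-sig lay between Pre DP-sig and the immature labels.

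Within the cortex, DP-sig bins were nearer the medulla than all labelled bins and farther from it than those of the immature labels. The median distance of a cortical bin to the nearest medullary bin was 197 µm for DP-sig (interval of the median 191 to 202), 219.5 µm for all labelled bins, 240.4 µm for DP, 220.0 µm for Pre DP-sig, 158 µm for Immature CD8 and 122 µm for Immature CD4. DP-sig made up 2.45% of labelled cortical bins within 25 µm of the medulla (2.24 to 2.67), 2.34% from 25 to 50 µm, 1.85% from 50 to 100 µm, 1.58% from 100 to 200 µm, 1.48% from 200 to 400 µm and 1.55% beyond. Over the same steps Immature CD4 went from 3.47% to 0.648% and Pre DP-sig from 7.05% to 10.1%. Median depth per bin moved with distance, from 443 UMIs within 25 µm to 287 beyond 400 µm, and its part in the gradient was not tested. In bins at or above the median depth of their region the DP-sig median was 143 µm beside 200.2 µm for all labelled bins. In cell bins it was 147 µm beside 173 µm.

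**Figure D5:**
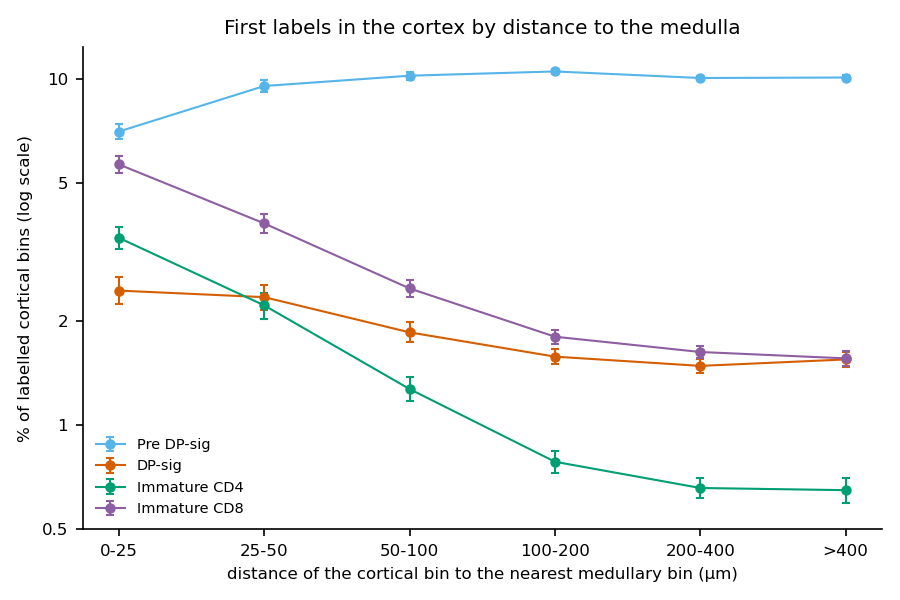
Share of labelled cortical bins (vertical axis, percent, log scale) whose first label is Pre DP-sig, DP-sig, Immature CD4 or Immature CD8, by distance to the nearest medullary bin in µm, with 95% Clopper-Pearson intervals for counting error as bars. DP-sig goes from 2.45% nearest the medulla to 1.55% beyond 400 µm, a shallower slope than that of Immature CD4.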

How the data were processed

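The values are the authors' deposited files. The UMI counts per gene and cell came from Cell Ranger 8.0.0 and Seurat 5.3.0 on build mRatBN7.2, per the submitters' processing notes. The gene annotation is not given in the sources used here. The authors also deposited each cell's mitochondrial percent, its UMAP coordinates, used as a score with no unit, and its labels. For the section the authors deposited UMI counts per bin and the RCTD weight, a fraction, with the first and second type and the region of each bin. Bins were 20 units wide, 10 µm at 0.5 µm per unit. The regions mECA and mEFA were taken as the medulla.

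From these, counts were summed per label and divided by the label's total. Genes with a mean of at least 25 CPM over both labels were compared, and 2-fold was the mark. In ratios of single genes, a label with fewer than 3 UMIs was set at 3 UMIs where the other label had more than 3. The counts of higher and lower genes against the compared labels used no such limit. In the counts against the subsets only a label with 0 UMIs was set at 3. Intervals are exact (Poisson, conditional binomial, Clopper-Pearson, 95%). Thinning drew 1000 UMIs per cell (seed 7). No cells were removed and no doublet caller was run. Some listed genes are not reported here by name. Named genes are the listed genes, the 10 largest and 10 smallest ratios per comparison on at least 50 UMIs and 15% of cells of the higher label, and the 10 largest leads. The labels' members and the gene lists were chosen with earlier results of these data known. Tables were handled with pandas 2.3.3 and NumPy 2.4.6 in Python 3.11.15, intervals came from SciPy 1.17.1, and figures were drawn with matplotlib 3.10.9.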

Additional observations from a re-analysis of the deposited data

How the results depend on the processing

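No paired analysis was possible because 1 library and 1 section hold every group. Counts of genes are given as higher and lower in DP-sig. With mitochondrial, ribosomal protein and haemoglobin genes left out of the totals, 195 genes were lower than in Immature CD4 and 200 lower than in Immature CD8. With every cell thinned to 1000 UMIs the counts were 282 and 306 against Pre DP-sig, 559 and 316 against Immature CD4 and 528 and 284 against Immature CD8, and 264 genes were highest in DP-sig. Genes near the minimum level rest on few UMIs after thinning, so ratios carry more counting error. Its part in these larger counts was not tested. Thinned, a UMI was found in 16.3% of DP-sig cells for Cd69, 28.5% for Cd5, 89.8% for Tox, 7.46% for Cd4 and 16.6% for Cd8a. With a minimum of 10 CPM the counts were 253 and 255 against Pre DP-sig, 402 and 275 against Immature CD4, 493 and 272 against Immature CD8 and 647 and 630 against DP, and 188 genes were highest in DP-sig. With 100 CPM they were 37 and 40, 79 and 22, 113 and 16, and 143 and 156 in that order, 45 genes were highest, 11 listed genes in place of 20 were higher than in Pre DP-sig, and the median position of genes higher in Immature CD4 was 1.26. The counts against the authors' subsets of the immature labels, and the levels without the cell that held most UMIs of a gene, were added after the data were seen and stand beside the results they touch. Ratios of the single genes named that were past 2-fold kept their direction in every alternative run for them. Direction was not checked for smaller ratios. Of all single-gene values 281 moved outside the counting interval of the main ratio and 3205 did not. Thinning gave 206 of the moved values, beside 375 that it did not move. Of the counts and section values 62 moved past the marks set for them and 74 did not.

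In the section, the DP-sig share in the capsular area, cortex, mECA and mEFA was 0.319%, 0.466%, 0.556% and 1.35% with confident labels only, and the median cortical distance was 184 µm. With bins given 1 type the shares were 1.51%, 1.70%, 2.27% and 2.06% and the distance 219 µm. With bins at or above the median depth of their region they were 0.784%, 1.25%, 0.726% and 1.16%, and 143 µm. In cell bins they were 1.61%, 2.06%, 2.07% and 2.19%, and 147 µm. Left of the median x coordinate the cortex had 1.70%, mEFA 1.58% and the distance was 189.7 µm, and right of it the cortex had 1.61% at 206 µm. With at least 200 UMIs per bin the capsular area had 1.14%, the cortex 1.42% and the distance was 171 µm. The order of the 4 regions was therefore not stable. The DP-sig median distance was below that of all labelled cortical bins in all 7 section alternatives. The cause of these shifts was not tested.

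One library and 1 section carry no error between animals. Splitting DP-sig by the authors' clusters was not run, since 284 of 295 cells were in 1 of them, and restricting to projected labels left every cell in place. Low genes rest on few UMIs, and Zbtb7b, Ccr7, Rag2 and Foxp3 were near or at the limit of detection in DP-sig.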

Other observations

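Cell cycle genes summed to 962 CPM in DP-sig, 1061 in Pre DP-sig, 794 in Immature CD4, 1000.1 in Immature CD8 and 928 in DP, so DP-sig lay within the range of the other 4 labels. Of 20 listed, 5 were compared, and 0 passed 2-fold against Pre DP-sig, Immature CD4 or Immature CD8, while against DP Pcna, the sliding clamp of DNA replication, was higher. Over all genes the shares higher and lower were 1.84% and 2.31% (Pre DP-sig), 3.94% and 2.13% (Immature CD4), 5.04% and 1.96% (Immature CD8), and 6.94% and 7.31% (DP). With shares this small, 5 genes are too few to tell the list from all genes. Of 7 Notch receptors and targets, 0 had enough UMIs to be compared with Pre DP-sig or with either immature label, and against DP 1, Ptcra, was compared and was lower in DP-sig.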
